A study of Homo sapiens with 6 samples.

Results

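Paired acceptors more than 3 nt apart are introns that can end at either of a pair of 3′ splice sites. Splicing to the outer acceptor, the one nearer the upstream exon, adds a stretch of bases to the start of the next exon, and splicing to the inner acceptor leaves them out. The pairs were selected on measured values, the read coverage and the Control percent, together with the layout of the event. They met 4 conditions: exactly 2 acceptors in the event, a distance over 3 nt, a coverage score of LOW or better with at least 10 reads in all 6 libraries, and a Control mean of 5 to 95% for the outer acceptor. These were met by 634 pairs in 602 genes of the deposited splicing table, out of 45280 acceptor pairs that far apart, of which 17382 had coverage. The whole table has 721551 rows, 171733 of them acceptor rows.

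The libraries came from the human neuroblastoma cell line SKNBE2, labelled as neuroblasts with amplified MYCN. The 3 DFMO libraries were from cells given 250 µM DFMO (difluoromethylornithine, a blocker of ornithine decarboxylase and so of polyamine synthesis) for 4 days, and the 3 Control libraries were from the same line with the treatment label Control. Both groups thus carry the MYCN amplification. Nothing in the labels says that replicates were separate cultures, so the p-values measure the spread between these libraries, which may be technical. For most pairs this spread was taken from a trend over all tested acceptor sites, and not from the pair's own libraries. The table holds no gene levels, and all 13 noradrenergic neuroblastoma markers looked for, such as DBH and MYCN, had covered events. Reads over all acceptor events came to 6309545 to 7599546 in DFMO libraries and 5939898 to 7898612 in Control libraries.

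As background, the 3′ splice site is marked by a pyrimidine-rich tract and an AG dinucleotide, read by U2AF2 and U2AF1, with the branch point bound first by SF1 and then by the U2 snRNP with SF3B1. The exon that follows this AG is joined to the upstream exon in the second step of splicing, with factors such as SLU7 and PRPF18. Where AGs compete, their distance from the branch point, the base before them and the tract all bear on the choice. A distance that is a multiple of 3 adds or removes whole codons in coding sequence, and any other distance shifts the reading frame.

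The listed acceptor positions were compared with the sequence where an annotated transcript covered it. Nearly all splice acceptors have AG, so this checks the positions and not their use. The added bases lay within a GENCODE release 29 transcript for 592 pairs, and in 590 of them (99.7%) they ended in AG, the mark of the inner acceptor. For 167 pairs a transcript also covered the bases before the outer acceptor, and 165 of these (98.8%) had AG there. The upstream donor was annotated for 627 pairs (98.9%), the outer acceptor for 577, the inner acceptor for 511 and both acceptors for 456.

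The bases around the inner acceptor are shown for the 13 pairs that passed the adjusted p between DFMO and Control cells, since they show what is added and where the second AG lies. They are reference sequence of GRCh38 from GENCODE transcripts, read 5′ to 3′ on the minus strand except for FDPS, TCF7L2 and REEP2. Capitals mark bases present only when the outer acceptor is used, at most the last 20, and lower case marks the shared exon.
REEP2, 6 nt added, all shown, chr5:138445228-138445243: GGCCAGggggtgctgt
LRBA, 15 nt added, all shown, chr4:150321359-150321383: TATCTCCTCCTGCAGagtccattga
CACNA2D1, 15 nt added, all shown, chr7:81997226-81997250: AACCCCAAATCTCAGgagccagtaa
PUM2, 15 nt added, all shown, chr2:20297654-20297678: CTGGTGTATTCTCAGcaggccttgc
TCF7L2, 15 nt added, all shown, chr10:113150983-113151007: CTTTCTGTCTTCTAGgttccctccc
CD27-AS1, 20 nt added, all shown, chr12:6448728-6448757: AGTCTTGCTTTGTCGCCCAGgttggagtgc
B4GALT3, 21 nt added, chr1:161176065-161176094: ATTCCCCTCTCCCTCCCTAGatctcacccc
FDPS, 21 nt added, chr1:155310044-155310073: GCCCTTTGCTCCTCCCTCAGaatgaacgga
ELF2, 36 nt added, chr4:139071994-139072023: TCCTTGTGTATCAACTCCAGaattcatcca
MPHOSPH9, 44 nt added, chr12:123227563-123227592: TGGGGTATCCTCTTTCTCAGggaagaccag
ICA1, 65 nt added, chr7:8235931-8235960: CCCCAAATCATCAACAATAGaagaagaaga
CEP170, 108 nt added, chr1:243156338-243156367: CCGTCTACGTACTTCTCCAGccctgaaaac
PCBP4, 197 nt added, chr3:51958143-51958172: TTTACCACCTGCTTCCCCAGggccgccgcc

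In all 13 stretches the added bases end in AG, with C before it in 10 and T in the other 3 (B4GALT3, TCF7L2 and ICA1). For 6 of them an annotated transcript covered the sequence before the outer acceptor too, and each has AG there. The windows of 3 coding pairs show the outer AG beside the inner one. Here lower case is intron and capitals are the first 4 added bases.
CEP170, outer acceptor, chr1:243156452-243156478: ttttaataattaaactaatttagTAAA
ELF2, outer acceptor, chr4:139072036-139072062: aatttttcaacttttttttatagTGGA
FDPS, outer acceptor, chr1:155310020-155310046: tgacttgtttttcttctacttagAGCC

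Over all pairs, the base before the inner AG was C in 432 (73.2%), T in 104 (17.6%), A in 49 (8.31%) and G in 5 (0.847%) of the 590. At the outer acceptor it was C in 100 (60.6%), T in 48 (29.1%), A in 12 (7.27%) and G in 5 (3.03%) of 165. Among the 95 pairs with room for a 20-base window before both AGs, the median share of C or T was 70% before the outer and 70% before the inner acceptor. These shares are descriptions, and outer acceptors with sequence are a subset, those inside an annotated longer exon.

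Distances ran from 4 to 419 nt, with a median of 32 nt and quartiles of 12 and 66 nt. The most frequent were 4 nt (67 pairs), 5 nt (41), 15 nt (24), 12 nt (23), 6 nt (22) and 21 nt (21). Beyond 5 nt, the tallest bars were at multiples of 3, as the plot of spacing shows. In all, 271 pairs (42.7%) kept the reading frame by distance, against 36.5% of the 17382 covered pairs before the filter on the percent. The share was 45.9% (220 of 479) where the added bases were coding and 32.9% (51 of 155) elsewhere. Added bases count as coding here if any of them overlaps coding sequence of a transcript that uses the outer acceptor. The added bases were in a 5′ UTR in 55 pairs, in a 3′ UTR in 9 and only in noncoding transcripts in 34, and 57 outer acceptors were not annotated.

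**Figure D1:**
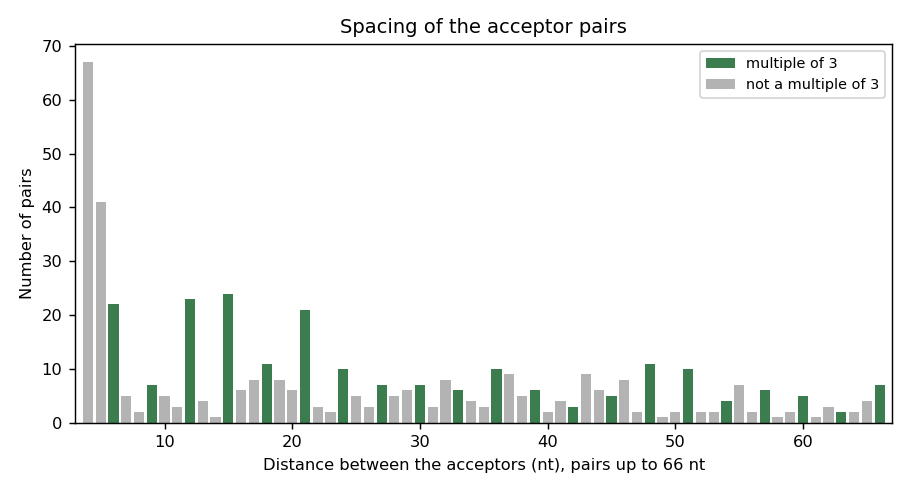
Number of pairs (y axis) at each distance between the acceptors in nt (x axis), for the 479 pairs up to 66 nt apart. Green bars are multiples of 3 and grey bars are other distances; the highest bars are at 4 nt (67 pairs) and 5 nt (41), followed by 15, 12, 6 and 21 nt.

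The percent used throughout is the share of reads at the pair that used the outer acceptor. The pairs were chosen by its Control mean, so Control levels are given as a description. In Control cells 310 pairs were above 75%, 145 between 25 and 75%, and 179 below 25%, and the median was 73.3%. Outer acceptors dominated among close pairs: the median Control percent was 85.2% at 4 to 12 nt, 62.3% at 13 to 50 nt, 74.2% at 51 to 150 nt and 34.6% above 150 nt. It was 83.0% where the added bases were coding, 64.9% in 5′ UTRs, 16.3% in noncoding transcripts and 7.49% where the outer acceptor was not annotated. The exon behind the acceptors was used in nearly all transcripts, with a median of 99.9% in DFMO and 100% in Control libraries, as listed in the quality text.

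The values at the limits of the rule were as follows, given as the means of the DFMO and the Control libraries. Just inside the lower limit were SMNDC1 (6.90% and 5%) and BPTF (2.46% and 5.03%), and just outside it CYB561D1 (2.76% and 4.85%) and MAP2K7 (8.07% and 4.83%). At the upper limit PHC3 (95.2% and 95%) and MTFMT (96.4% and 94.98%) were inside, and NDUFA12 (97.0% and 95.03%) was outside. The closest pairs admitted were 4 nt apart, such as SRSF5 (73.9% and 77.3%) and TMEM108 (61.1% and 62.6%), while the 3-nt pair of PCBP2 (72.4% and 76.7%) was left out. The coverage score was stricter than 10 reads: the lowest library of any pair had 25 reads (TOE1 and EDRF1), and HPS3 stayed out with 24.

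The comparison of DFMO with Control cells asked which pairs shift between acceptors when polyamine synthesis is blocked. The log2 odds of the outer acceptor were fitted with limma over all 2434 acceptor sites with a 6-library mean of 5 to 95%, and its two-sided p-values were adjusted over those sites by the method of Benjamini and Hochberg. A call needed an adjusted p under 0.05 together with a gap of 10 points or more between the mean percents. Of the 634 pairs, 566 entered the test; the other 68 had a 6-library mean outside the range, differed by 8.55 points at most, and were not tested.

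Few pairs changed. The outer acceptor was called higher with DFMO in 4 pairs (CACNA2D1, B4GALT3, REEP2 and LRBA) and lower in 7 (CEP170, CD27-AS1, MPHOSPH9, ELF2, ICA1, PCBP4 and FDPS). That is 1.94% of the 566, against 1.23% of all tested acceptor sites (30 of 2434; 0.534% higher and 0.698% lower). The share called was 2.21% for donor sites, 3.45% for exons and 3.8% for introns in the same table, each fitted in its own class. At the adjusted p alone 13 of the 566 pairs passed, the 11 with PUM2 and TCF7L2, against 42 of all 2434 acceptor sites (1.73%). The median difference over the 566 pairs was -0.48 points, with quartiles of -4.36 and 2.61 points, and over all tested acceptor sites it was -0.01 points.

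The calls rest on how the variance is modelled. When the variance was not tied to counting error, limma called 0 pairs, although 73 had an unadjusted p under 0.05 (96 in the fit with that trend), while the quasi-binomial test gave 13 calls, 3 up and 10 down. Fewer pairs were called with any library left out: 4 without DFMO replicate 1 (1 lower), 7 without DFMO replicate 2 (3 lower) and 9 without DFMO replicate 3 (6 lower). It was 9 without Control replicate 1 (4 lower), 7 without Control replicate 2 (3 lower) and 9 without Control replicate 3 (5 lower).

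**Figure D2:**
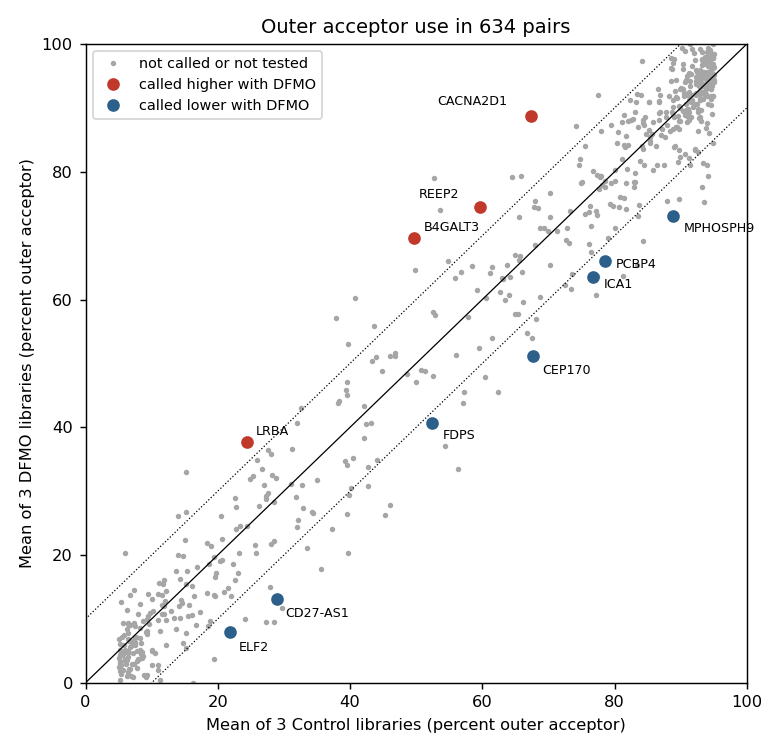
Mean percent of the outer acceptor in 3 DFMO libraries (y axis) against the mean of 3 Control libraries (x axis) for the 634 pairs. Red points were called higher and blue points lower with DFMO, grey points were not called or not tested, the solid line marks equality and the dotted lines 10 points. The 4 red and 7 blue points lie outside the dotted lines, as do other pairs that did not pass the adjusted p.

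LRBA encodes a large scaffold of vesicle traffic, and its pair had by far the most reads of the 11 called, with a mean of 934.3. The outer acceptor took 36.1%, 38.8% and 38.3% of reads in DFMO libraries and 22.4%, 25.1% and 25.8% in Control libraries. All 3 DFMO values were above all 3 Control values, and the means were 37.7% ± 1.44 and 24.4% ± 1.79 (SD, n = 3 each). The log2 odds rose by 0.91 (SE 0.13; limma adjusted p = 2.30e-09). The acceptors lie 15 nt apart, so that the longer form carries 15 more coding bases without a frame shift. Retention of the LRBA intron that ends at this inner acceptor was 12.3% in DFMO and 8.26% in Control cells (limma adjusted p = 0.00394). Transcripts spliced to the outer acceptor also hold the bases just before the inner one. Whether their reads entered the retention value was not tested, so it may not be a separate change.

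B4GALT3, a galactosyltransferase of N-glycan synthesis, had its pair in the 5′ UTR, 21 nt apart. DFMO libraries stood at 66.02%, 70.3% and 72.4% and Control libraries at 48.5%, 49.4% and 51.3%, again without overlap. The means were 69.6% ± 3.27 and 49.7% ± 1.45, a log2 odds rise of 1.21 (SE 0.20; limma adjusted p = 5.88e-07). The intron that ends at this inner acceptor was retained at 30.1% in DFMO and 20.6% in Control cells (limma adjusted p = 0.00895). Here too, reads of the outer form may have entered the retention value, which was not tested. A further B4GALT3 pair, 71 nt apart, had 92.9% and 90.4% (limma adjusted p = 0.805).

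CACNA2D1, the α2δ subunit of voltage-gated calcium channels, had the largest difference of the called pairs. Its 15-nt coding stretch was included in 82.5%, 92.4% and 91.4% of reads in DFMO libraries, against 63.9%, 70.1% and 68.3% in Control libraries. The groups did not overlap, and the log2 odds rose by 1.98 (SE 0.44; limma adjusted p = 0.00176). Mean reads were 99.7 in DFMO and 96.3 in Control libraries. The LRBA, B4GALT3 and CACNA2D1 calls held with each library left out in turn.

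REEP2, which shapes the endoplasmic reticulum, was the only called pair whose groups overlapped; it is named here after its values were seen. Its acceptors are 6 nt apart, and the outer one took 85.02%, 56.3% and 81.9% of reads with DFMO and 55.9%, 65.9% and 57.1% in Control. DFMO replicate 2 lay inside the Control range. The adjusted p was 0.0350 with limma, and 0.362 with the quasi-binomial test. Leaving out replicate 1 or 3 of either group ended the call (9.48 to 13.5 points), as did a fit on the percent scale, an offset of 0.1 or 1, or another filter on the percent.

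PUM2, a Pumilio protein that binds 3′ UTRs and represses translation, passed the adjusted p but not the 10 points. The outer acceptor, 15 nt upstream in coding sequence, took 98.7%, 97.1% and 97.8% with DFMO and 86.6%, 84.1% and 94.98% in Control. Its inner acceptor is not annotated, while the outer one is. The difference was 9.31 points (log2 odds 2.38, SE 0.50; limma adjusted p = 5.89e-04), and without Control replicate 3, the highest of its group, it was 12.5 points and a call.

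**Figure D3:**
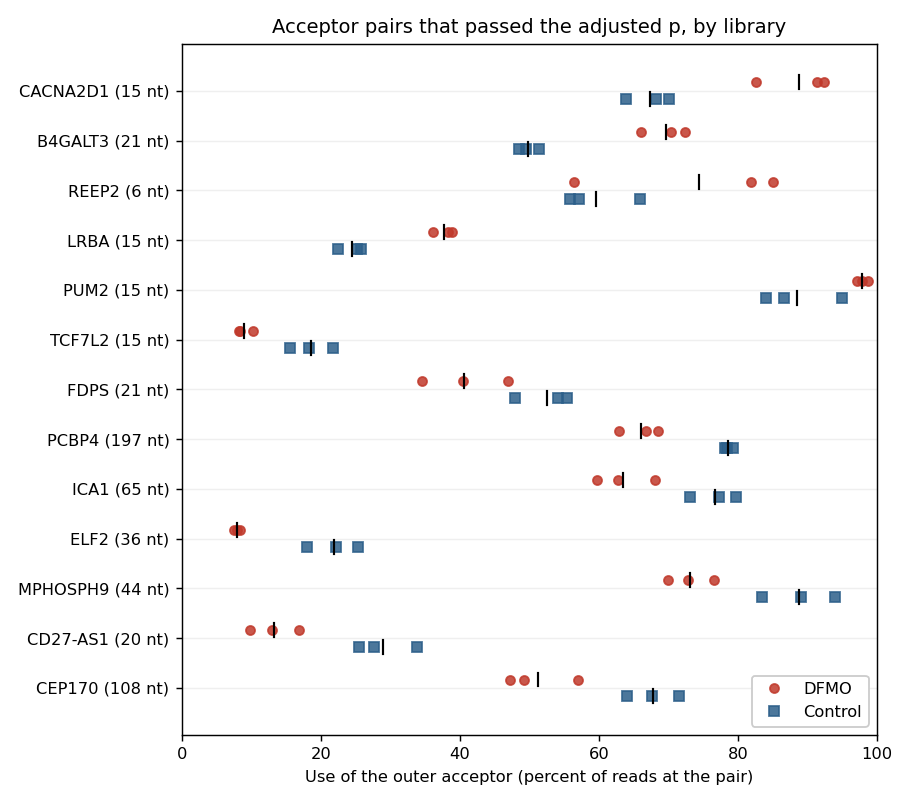
Percent of reads at the pair that used the outer acceptor (x axis) in each library, for the 13 pairs that passed the adjusted p (y axis, with the distance in nt). Red circles are DFMO libraries, blue squares Control libraries and black ticks group means of 3 libraries. The groups are apart in every pair but REEP2, and in FDPS they nearly touch.

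CEP170, a protein of the centriole's subdistal appendages, had the largest fall in percentage points (-16.6) of the 7 pairs called lower, while ELF2, MPHOSPH9 and CD27-AS1 fell more on the log2 odds scale. The 108-nt coding stretch of CEP170 was included in 49.3%, 57.0% and 47.3% of reads with DFMO and in 67.7%, 64.0% and 71.5% in Control. The groups were apart by 7 points at their closest, and the difference in log2 odds had a 95% interval of -1.49 to -0.51 (SE 0.25; limma adjusted p = 0.00916). A 294-nt CEP170 exon elsewhere in the gene had 51.02% with DFMO and 68.5% in Control (limma adjusted p = 0.0213). The acceptor call ended without Control replicate 3 (-14.7 points) or DFMO replicate 1 or 3 (-15.6 and -14.6 points), and with no filter on the percent. CEP170 and FDPS have pseudogene copies, and the handling of reads shared with them was not examined.

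ELF2, an ETS family transcription factor, used the outer of acceptors 36 nt apart in 8.33%, 7.85% and 7.47% of reads with DFMO and in 18.0%, 22.2% and 25.3% in Control. The DFMO libraries were within 0.86 points of each other and well under the Control range. The log2 odds fell by 1.63 (SE 0.47; limma adjusted p = 0.0347), on a mean of 99.7 reads. TCF7L2, the transcription factor at the end of the Wnt pathway, had a similar level at a 15-nt pair, with 8.31%, 8.19% and 10.2% under DFMO and 18.2%, 21.8% and 15.6% in Control. Its difference of -9.63 points passed the adjusted p (0.0151, limma) but was under 10 points, and passed that limit too when replicate 3 of Control or of DFMO was left out (-11.1 and -10.3 points). With any of the other 4 libraries left out, TCF7L2 no longer passed (limma adjusted p = 0.0559 to 0.161, -9.78 to -8.00 points). The ELF2 call ended without any 1 of the 6 libraries (-15.9 to -12.2 points), on the percent scale and with no filter on the percent.

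MPHOSPH9, a centriole protein, is a frame-shifting case, with coding acceptors 44 nt apart. The outer one took 72.8%, 70.0% and 76.6% with DFMO and 83.5%, 89.1% and 94.0% in Control, without overlap (log2 odds -1.60, SE 0.46; limma adjusted p = 0.0350). The exon behind it was used in 81.1% with DFMO and 85.9% in Control, lower than in the other called pairs. PCBP4, a poly(C)-binding protein of the hnRNP K family, had the longest stretch, 197 bases that overlap coding sequence. Inclusion was 66.8%, 62.9% and 68.5% with DFMO and 78.4%, 78.1% and 79.3% in Control, where the libraries lay within 1.17 points (log2 odds -0.91, SE 0.21; limma adjusted p = 0.00410). The MPHOSPH9 call ended on the percent scale, with no filter on the percent and when any of the 5 libraries other than Control replicate 1 was left out (-17.4 to -13.1 points), and the PCBP4 call without DFMO replicate 2 (-11.0 points).

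FDPS makes farnesyl diphosphate in the mevalonate pathway. Its 21-nt coding stretch was included in 34.6%, 46.9% and 40.5% of reads with DFMO and in 55.4%, 47.9% and 54.1% in Control, so that the nearest libraries of the groups were 1.03 points apart. The log2 odds fell by 0.69 (SE 0.17; limma adjusted p = 0.00630). ICA1, a BAR domain protein of secretory granules, used the outer of 5′ UTR acceptors 65 nt apart in 62.7%, 68.1% and 59.7% with DFMO and in 77.3%, 79.7% and 73.1% in Control (log2 odds -0.92, SE 0.23; limma adjusted p = 0.00992). The FDPS call ended without Control replicate 1 (-10.4 points) or DFMO replicate 1 (-8.78 points), the ICA1 call when DFMO replicate 1 or 3 or Control replicate 2 was left out (-12.8 to -11.3 points), and both with no filter on the percent.

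CD27-AS1 is a noncoding RNA antisense to the CD27 gene. The outer of its acceptors, 20 nt apart, took 16.8%, 12.9% and 9.71% with DFMO and 25.4%, 27.6% and 33.8% in Control (log2 odds -1.43, SE 0.41; limma adjusted p = 0.0350). Retention of the intron that ends at this inner acceptor was 16.1% with DFMO and 37.0% in Control (limma adjusted p = 1.34e-04), and mean reads at the pair were 118.0 and 79.3. As with LRBA, reads of the outer form may have entered the retention value, which was not tested. The libraries were stranded per the labels, and the use of strand in counting is not given in the sources used here, so reads of CD27 and of CD27-AS1 may not be told apart. Whether the sequence at this pair has similar copies elsewhere in the genome was not examined. This call ended without any 1 of the 6 libraries (-17.6 to -13.3 points), on the percent scale and with no filter on the percent.

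The 5 pairs with the most reads that did not pass the adjusted p had small differences. SNRPB, an Sm protein of the spliceosomal snRNPs, had the most reads (2384.7 on average), and its 146-nt pair stood at 77.8%, 78.2% and 78.8% with DFMO and 73.8%, 74.3% and 76.6% in Control. The groups did not overlap and differed by 3.33 points, which did not pass (log2 odds 0.27, 95% interval 0.10 to 0.44; limma adjusted p = 0.0922). PCBP2, a poly(C)-binding protein, averaged 15.1% ± 0.66 with DFMO and 16.1% ± 0.96 in Control at a 12-nt pair (log2 odds -0.11, interval -0.33 to 0.11; limma adjusted p = 0.721). SLC25A39, a mitochondrial glutathione carrier, had 24.6% ± 1.82 and 24.4% ± 2.15 (log2 odds 0.02, interval -0.20 to 0.23; limma adjusted p = 0.963).

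TOMM6, of the outer membrane translocase, had 13.8% ± 1.27 with DFMO and 11.6% ± 2.26 in Control (log2 odds interval 0.03 to 0.58; limma adjusted p = 0.327). NDUFA2, a subunit of respiratory complex I, had 4.99% ± 0.39 and 5.91% ± 0.32, without overlap (log2 odds interval -0.69 to 0.17; limma adjusted p = 0.646). For these 5 pairs the intervals cover at most 0.69 on the log2 odds scale on either side of 0. SNRPB and PCBP2 have close relatives or pseudogenes whose reads may be shared.

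Other pairs were near the threshold, and 4 with the next lowest adjusted p are named after their values were seen. PHKG2, a phosphorylase kinase subunit, had 3.62%, 4.55% and 3.18% with DFMO and 30.6%, 17% and 10.7% in Control at a 12-nt pair (limma adjusted p = 0.0553). PRRC2A, whose 37-nt pair lies in the 5′ UTR, had 34.6%, 36.01% and 30.8% with DFMO and 44.5%, 40.6% and 43.3% in Control (limma adjusted p = 0.0561). CLCC1, a channel of the endoplasmic reticulum, averaged 75.8% ± 3.15 and 89.7% ± 0.75 at a 150-nt pair (limma adjusted p = 0.0634). RPS25, a small-subunit ribosomal protein, had an outer acceptor that is not annotated, with 0.69%, 0.81% and 0% in DFMO and 14.6%, 9.74% and 9.42% in Control libraries (limma adjusted p = 0.0660). The 0% rests on 135 reads, which allows up to 2.22% (3 reads of 135), and this limit covers counting error only. None of the 4 passed, although the DFMO values lay under all Control values in each.

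At least 10 points separated the means in 73 of the 566 tested pairs (12.9%), 22 higher and 51 lower with DFMO, against 9.57% of all tested acceptor sites (108 higher, 125 lower). Pairs above 75% in Control, a level the rule bears on, gave 2 of the 22 and 19 of the 51, and pairs under 25% gave 5 of each. The difference between these splits was not tested. The 3 DFMO libraries lay apart from the 3 Control libraries in 117 pairs (20.7%), 37 higher and 80 lower, against 17.7% of all tested sites (8.01% higher, 9.65% lower). At an unadjusted p below 0.05 there were 96 of the 566 pairs, against 319 of all 2434 tested sites (13.1%). The median SD within a group was 3.96 points in DFMO and 3.99 points in Control libraries. Differences of at least 10 points were less frequent where reads were more numerous: at a mean of 100 reads or more, 13 of 231 pairs (5.63%) had one, and below it 60 of 335 (17.9%).

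The sign of the differences varied with the distance between the acceptors, as a description and without a test. Among 152 tested pairs 4 to 12 nt apart, 61.8% had more outer acceptor use with DFMO, with a median difference of 1.24 points and 1 call, REEP2. At 13 to 50 nt it was 43.7% of 215 pairs (median -0.65 points, 3 called higher and 4 lower). At 51 to 150 nt it was 36.4% of 162 pairs (median -1.71 points, 2 called lower). Above 150 nt it was 40.5% of 37 pairs (median -1.63 points, 1 called lower). Tandem acceptors 3 nt apart, for comparison, were higher in 64.3% of 445 tested events (median 1.41 points, 2 called higher).

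Averaged over all pairs of a distance class, the libraries stood as follows. At 4 to 12 nt the mean percent was 72.4, 71.6 and 71.5 in DFMO libraries and 70.1, 70.6 and 70.6 in Control libraries. At 51 to 150 nt it was 55.2, 54.5 and 53.9 with DFMO and 56.8, 57.2 and 56.6 in Control. Above 150 nt it was 38.6, 40.2 and 37.5 with DFMO and 41.4, 42.2 and 41.1 in Control (40 pairs). The groups were apart in these 3 classes, with the DFMO libraries above Control at 4 to 12 nt and under Control in the wider ones. At 13 to 50 nt the values were 53.0, 51.9 and 52.6 with DFMO and 53.5, 52.9 and 53.2 in Control, and they overlapped. These means include the pairs that were not tested. The Control mean also chose the pairs and the DFMO values did not, so the separation is a description only. No p-value is given for these means, since the pairs were chosen with earlier results known.

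**Figure D4:**
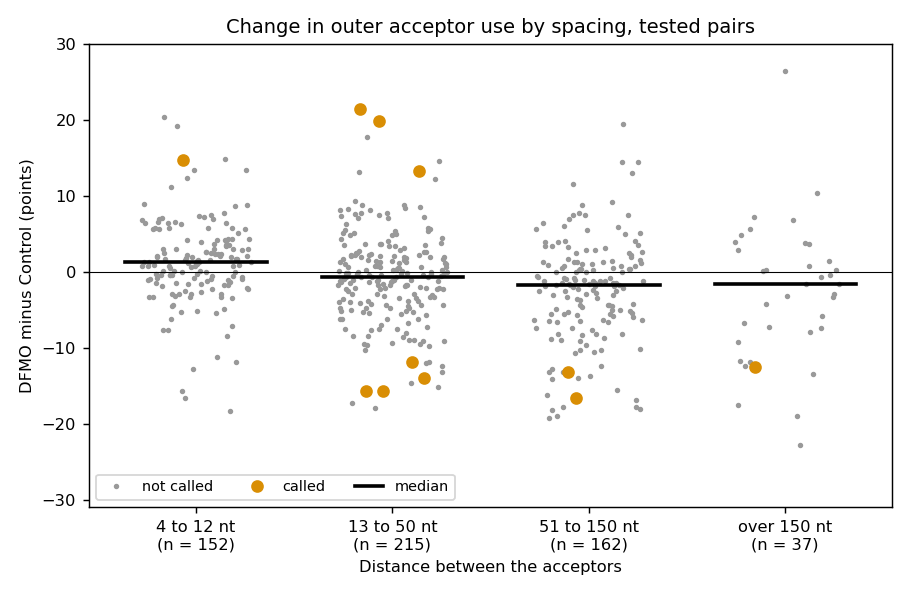
Difference in outer acceptor use, DFMO minus Control in percentage points (y axis), for tested pairs by the distance between the acceptors (x axis). Each grey point is a pair, orange points were called and black bars are medians, which are 1.24, -0.65, -1.71 and -1.63 points from the closest to the widest class.

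Among pairs with a mean of 100 reads or more, the share higher with DFMO was 62.3% of 61 pairs at 4 to 12 nt, 48.0% of 100 at 13 to 50 nt and 32.8% of 61 at 51 to 150 nt. Only 9 pairs that deep were over 150 nt apart, of which 5 were higher. Pairs of alternative donors more than 3 nt apart, in which the longer form also adds exon bases, were higher in 47.3% of 224, 41.5% of 236, 33.3% of 201 and 42.0% of 81 pairs over the same 4 classes. The difference between acceptors and donors was not tested.

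By reading frame, 7 of 241 tested pairs at multiples of 3 were called (4 higher, 3 lower; 2.90%) and 4 of 325 others (0 higher, 4 lower; 1.23%). The 4 pairs called higher thus all add whole codons or, in B4GALT3, 21 bases of 5′ UTR, while CD27-AS1, MPHOSPH9, ICA1 and PCBP4 were called lower at other distances. Median differences were -0.70 and -0.42 points. Where the added bases were coding, 8 of 428 were called (1.87%), in 5′ UTRs 2 of 54 (3.70%), in noncoding transcripts 1 of 32 (3.12%) and in 3′ UTRs 0 of 9. The differences between these shares were not tested.

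In all, 28 genes had more than 1 pair. DDX55, a DEAD box helicase, had 4 pairs, none of which passed, and its 66-nt pair had 4.62%, 0% and 3.64% with DFMO and 3.28%, 18.8% and 10.7% in Control (limma adjusted p = 0.525). Its 0% rests on 55 reads, which allows up to 5.45%. UNC79, a subunit of the sodium leak channel complex, had 3 pairs, with 63.8% ± 15.6 and 81.3% ± 4.17 at 156 nt, 75.9% ± 9.67 and 81.5% ± 2.64 at 102 nt and 34.9% ± 8.66 and 44.1% ± 18.3 at 159 nt (limma adjusted p = 0.125, 0.794 and 0.646). In the genes of the 634 pairs, 32 of 782 tested exons (4.09%), 17 of 501 introns (3.39%) and 7 of 207 donor sites (3.38%) were called, beside 3.45%, 3.8% and 2.21% over the whole table.

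Genes whose products read the 3′ splice site or act in the second step were looked at as a list of 45. In 28 of them 81 events of any class were tested, and 0 were called, with 4 at an adjusted p below 0.05 in limma. Over the whole table the share called was also low. It was 1.23% for acceptor sites, 2.21% for donor sites, 3.45% for exons and 3.8% for introns. The difference from these shares was not tested. The 4 were exons and introns, for which the share at the adjusted p alone is not given here. A 120-nt exon of U2AF2 had 11.9% with DFMO and 4.20% in Control (adjusted p = 0.00281), and a 29-nt exon of SF3B3 had 21.98% and 12.2% (adjusted p = 0.0118). Retention of an intron of TIA1, which binds uridine-rich sequence by splice sites, was 12.9% and 5.17% (adjusted p = 0.0124), and of an intron of HNRNPC 9.82% and 11.97% (adjusted p = 0.00394). The median difference was 0.65 points over the list and 0.60 points over all tested events.

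From this list, TIAL1 and U2SURP had acceptor pairs among the 634. TIAL1, a relative of TIA1, used the outer of acceptors 51 nt apart in 25.8%, 22.6% and 28.2% with DFMO and in 32.1%, 28.6% and 35.7% in Control (limma adjusted p = 0.433). U2SURP, a protein of the U2 snRNP, had 57.6%, 51.3% and 62.0% with DFMO and 71.6%, 66% and 66.9% in Control at a 4-nt pair (limma adjusted p = 0.420). The groups did not overlap in either, and neither passed. No gene of polyamine synthesis, acetylation or transport that was looked for, such as SAT1, ODC1, AZIN1 or SLC3A2, had a pair among the 634.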

How the data were processed

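RNA splicing was measured by mRNA sequencing (single reads of 100 nt, stranded per the labels) in 3 DFMO and 3 Control libraries of SKNBE2 cells. The authors deposited, for each event and library, a percent and a quality text with a coverage score and the reads for and against the event; the aligner is not given in the sources used here, nor is the quantifier, and the build was GRCh38 per the submitters' processing notes. Percents recomputed from these reads lay within 0.25 points. Columns were mapped by title, and 0 columns were left unmapped.

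Reads for each acceptor plus 0.5 gave the log2 odds of the outer one, and limma 3.58.1 (R 4.3.3) compared the groups with robust empirical Bayes and a variance trend on the expected counting variance. The prior degrees of freedom came out infinite, so that most sites took the variance of the trend (2.56 without the trend). For events with several acceptors every site but the first entered. Between libraries of a group, chi-square per pair averaged 1.96 to 2.48, against about 1 for counting error alone, and every library was counted as its own replicate. Mean reads per pair ran from 28.2 to 2384.7, with a median of 80.9.

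The acceptor positions were annotated, and sequences read, with GENCODE release 29 on GRCh38. The pairs, lists and tests were chosen with earlier results of these data known. Named pairs were those called with groups apart, then those that passed the adjusted p with groups apart, the 5 with most reads that did not pass, and those in polyamine or 3′ splice site genes. Alternatives covered the variance model, test, scale, offset, filters, adjustment, minimum difference, replicate block and left-out libraries. A pair with only 1 of its acceptor rows in the table was not used here, and some items at the limits of the rule are not reported here.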

Additional observations from a re-analysis of the deposited data

How the results depend on the processing

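Against 11 called pairs (4 higher, 7 lower), the variance model mattered most: without the trend 0, 0 and 0 were called (in all, higher and lower). With no filter on the percent 5 were called, 2 of them lower. With 1 library left out in turn, the count ran from 4 to 9, from 3 to 5 higher and from 1 to 6 lower. The lowest counts came without DFMO replicate 1, where 4 of the 11 remained. Without DFMO replicate 3, 9 were called, but only 5 of the 11 were among them. The other settings gave 8 to 14 calls, with 10 of the 11 among the 13 of the quasi-binomial test and 7 among the 8 on the percent scale. The replicate block called 12 (4 higher, 8 lower), among them all 11. Libraries with the same number did not deviate together over all tested acceptor sites (correlations of -0.04, 0.03 and 0.01). Counting error makes up part of these deviations, so a pairing that acts on few sites could be missed. SLC25A39, which was never called, changed sign without Control replicate 1 (-1.0 points), DFMO replicate 1 (-0.07) or DFMO replicate 3 (-0.54), and its highest value was 1.22 points. The cause of these changes was not tested. Of the settings that keep all libraries, no variance trend ended all 11 calls. Pairs with a LOW score in some library had 35 of 142 differences of at least 10 points and 0 calls, on a median of 44.5 reads, and 24 of these 142 had an unadjusted p below 0.05, against 72 of the 424 others. The part of depth in this was not tested.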
